A study of Mus musculus with 78 samples.

Results

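The 10 genes described here encode the proneural factors and the transcription factors that act beside them as mouse brain progenitors become neurons: Neurog1, Neurog2, Neurod1, Neurod2, Neurod4, Neurod6, Eomes, Insm1, Nhlh1 and Nhlh2. They were taken by name from the 18193 genes that the array measures, each through its probe set of the highest mean level over all 78 arrays, and were followed through all 26 groups. Expression was measured on Affymetrix arrays in total RNA of brain of embryos (day 14, E14), newborns (P0) and pups (postnatal day 14, P14). Each group holds 3 arrays, which the labels call biological replicates. Values are log2 levels, so that a difference of 1 is a 2-fold difference, and all errors below rest on n = 3 arrays per group.

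The wild types were of mixed background A and mixed background B at E14, P0 and P14, and from an inbred background (WT129s6 in the titles) at P0 and P14. The mutants carry alleles of genes of the LIS1 complex, which links the motor dynein to migrating nuclei, or of Dcx, a microtubule protein of migrating neurons. The series asks whether such mutants change the same genes or different ones. Lis1 (Pafah1b1) ko/+ and ko/cko and Ndel1 ko/+ and ko/cko brains were measured at E14, P0 and P14, Dcx ko/Y at E14 and P0, and 14-3-3 epsilon (Ywhae) ko/ko at E14. At P0 there were also inbred Ndel1 ko/+ and inbred 14-3-3 epsilon ko/ko brains, and at P14 Ndel1 ko/+ brains with a mixed background in their label. The titles of the Lis1 ko/+ and ko/cko groups at P0 also carry Mix, without A or B. A cko allele is conditional and was carried over a null allele, and the labels name no Cre driver for it.

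Proneural factors are basic helix-loop-helix (bHLH) proteins that pair with E proteins, bind short DNA motifs called E-boxes, and push a dividing progenitor towards becoming a neuron. In the cortical excitatory lineage Neurog2 in progenitors acts upstream of Eomes, a T-box factor of intermediate progenitors, of Insm1, a zinc finger factor that favours the birth of those progenitors, and of the Neurod and Nhlh factors of newborn neurons. Neurod2 and Neurod6 stay on in maturing excitatory neurons, Id proteins block E proteins, and Hes and Hey repressors hold progenitors back under Notch signalling.

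Because these factors bind E-boxes and some of the 10 genes are themselves targets of the cascade, 5 promoters are shown: Nhlh1, Nhlh2 and Eomes, whose levels fell between E14 and P0, and Neurod2 and Neurod6, which were not called there. RefSeq promoter windows on GRCm38.p6 were matched for 9 of the 10 genes, all but Insm1. Up to 250 bases before each start are printed on the strand of the gene, less any bases within the annotated gene. They are chr1:172057597-172057846 (minus strand) for Nhlh1, chr3:102009895-102010110 (plus strand) for Nhlh2, chr9:118477939-118478185 (plus strand) for Eomes, chr11:98329646-98329895 (minus strand) for Neurod2 and chr6:55681264-55681513 (minus strand) for Neurod6. Capitals mark CAGATG, the E-box form that Neurog and Neurod factors are known to favour.
Nhlh1: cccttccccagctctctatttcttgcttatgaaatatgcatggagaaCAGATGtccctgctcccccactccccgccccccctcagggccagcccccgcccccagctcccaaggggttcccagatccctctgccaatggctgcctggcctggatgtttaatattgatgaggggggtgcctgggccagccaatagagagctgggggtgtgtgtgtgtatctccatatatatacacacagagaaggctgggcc
Nhlh2: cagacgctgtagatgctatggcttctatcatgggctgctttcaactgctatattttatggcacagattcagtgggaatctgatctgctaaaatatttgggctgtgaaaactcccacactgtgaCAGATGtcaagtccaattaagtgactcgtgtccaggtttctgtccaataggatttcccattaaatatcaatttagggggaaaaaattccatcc
Eomes: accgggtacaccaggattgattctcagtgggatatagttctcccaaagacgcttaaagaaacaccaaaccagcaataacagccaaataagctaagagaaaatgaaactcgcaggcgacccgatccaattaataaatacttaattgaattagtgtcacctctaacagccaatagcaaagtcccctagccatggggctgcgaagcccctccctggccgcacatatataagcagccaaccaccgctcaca
Neurod2: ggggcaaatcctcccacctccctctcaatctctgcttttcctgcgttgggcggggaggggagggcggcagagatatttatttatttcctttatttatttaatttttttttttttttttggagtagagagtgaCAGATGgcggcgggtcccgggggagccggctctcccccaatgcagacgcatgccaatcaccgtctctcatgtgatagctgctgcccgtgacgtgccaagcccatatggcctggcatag
Neurod6: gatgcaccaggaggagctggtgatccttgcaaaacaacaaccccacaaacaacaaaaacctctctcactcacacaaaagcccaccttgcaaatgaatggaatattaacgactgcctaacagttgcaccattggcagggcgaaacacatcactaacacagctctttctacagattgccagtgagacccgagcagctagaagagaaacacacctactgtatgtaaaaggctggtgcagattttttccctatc
CAGATG or its reverse complement CATCTG lay in the 250-base windows of 3 of the 9 genes, at position -203 before the start in Nhlh1, -127 in Nhlh2 and -118 in Neurod2. Of 32851 RefSeq windows of the same length, 4745 (14.4%) hold it. These counts use the full windows, bases within the annotated gene included. The window of Neurog2 lies wholly within its annotated gene. The palindrome CAGCTG, a second E-box that does not overlap the first, was in 0 of the 9 and in 4271 (13.0%) of all windows. These matches describe letters in a window, and the arrays measure no binding there.

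The tissue label held up: all 8 general neuronal markers were above the level filter in every age, and their summed level was 14.16 to 14.87 log2 units at E14 and 14.78 to 15.14 at P14. Dcx averaged 4.58 at E14 and 4.30 at P0 in Dcx ko/Y, but some libraries go against their labels. Of the E14 libraries labelled 14-3-3 epsilon ko/ko, replicates 1 and 2 held Ywhae at 12.68 and 12.92 against 9.97 in replicate 3. At P0 replicate 2 of those labelled Dcx ko/Y held Xist, an RNA of females, at 11.27. Ndel1 was no lower than wild type in the inbred Ndel1 ko/+ libraries at P0 and in the mix-labelled Ndel1 ko/+ libraries at P14, and it was 9.82 in Ndel1 ko/cko at E14 against 9.45 in ko/+. At P0 and P14 the arrays also fell on 2 sides of the first principal component (38.8% and 56.6% of the variance). With mixed B lay both Ndel1 genotypes of no further label and Dcx ko/Y, and with mixed A the remaining groups.

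Across normal development 8 of the 10 genes fell from E14 to P0 in both mixed backgrounds, among them Neurog2 and Nhlh1, while Neurod2 and Neurod6 were not called. Eomes, Insm1, Nhlh2 and Neurog2 fell again from P0 to P14, the step in which Neurod6 was called as well. For each gene the larger of limma's unadjusted p-values for mixed A and mixed B was kept and then adjusted over all tested genes. A gene was called in a step where this adjusted p was under 0.05 and the direction was the same in both backgrounds. Changes between ages are given relative to the median gene, which moved by -0.19 from E14 to P0 and 0.13 from P0 to P14. The p-values of these steps belong to the changes before this shift. Those of a gene's other probe sets are given relative to the median probe set. From E14 to P0, 49.8% of the 12864 tested genes were called, 35% lower and 14.8% higher, so the count of 8 lower of 10 is read against a large background.

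**Figure D1:**
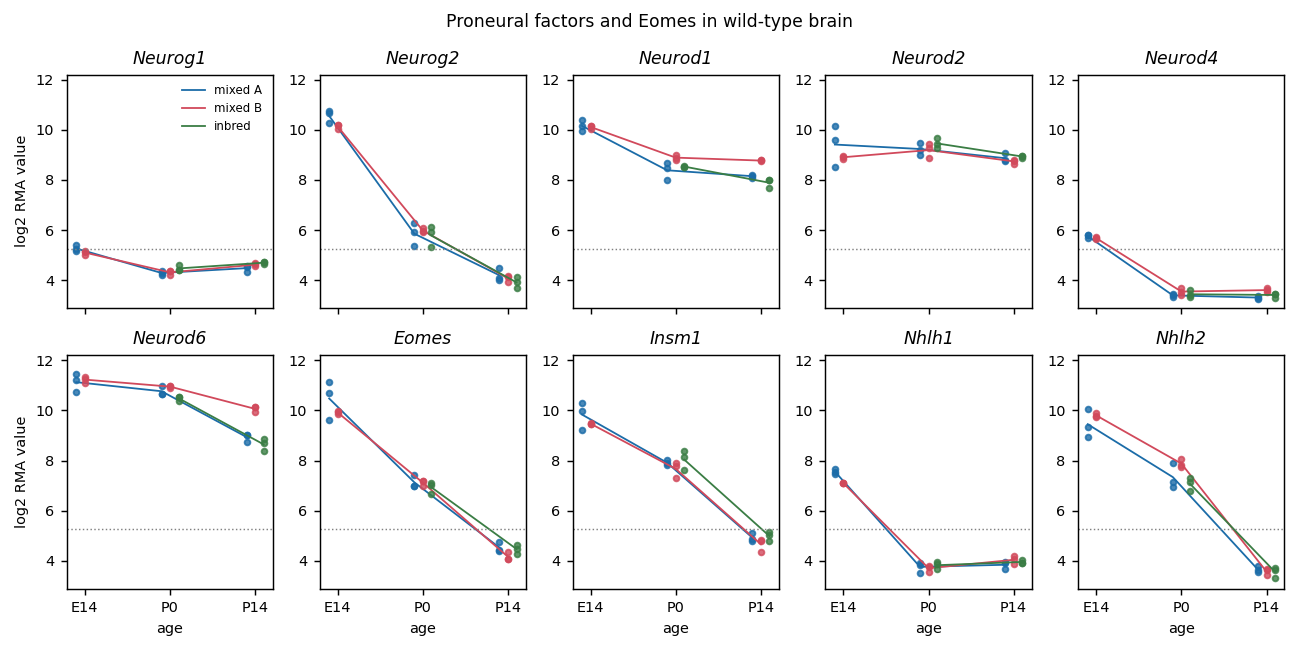
Log2 level (y axis) of each of the 10 genes in wild-type brain at E14, P0 and P14 (x axis), 1 panel per gene, with 1 point per array, lines through the group means of mixed A, mixed B and inbred, and the level filter of 5.25 as a dotted line. Neurog2 drops from 10.02 to 10.75 at E14 to 5.31 to 6.27 at P0, whereas Neurod2 stays between 8.50 and 10.14 at all ages.

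Neurog2, the proneural factor of dorsal forebrain progenitors, stood at 10.25, 10.75 and 10.65 in the mixed A arrays at E14 and 10.21, 10.02 and 10.17 in mixed B. At P0 it stood at 5.93, 6.27 and 5.38 in mixed A and 5.96, 6.08 and 5.91 in mixed B, and at P14 no wild-type array was above 4.48. The 3 ages did not overlap in any wild-type array. The change was -4.23 ± 0.20 (SE) from E14 to P0 (limma adjusted p = 2.21e-13) and -1.91 ± 0.20 from P0 to P14 (adjusted p = 2.14e-07). At P14 all 8 group means of Neurog2 were under the filter of 5.25, so the second fall ends near the floor of the array.

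Neurog1, the related proneural factor, was dim on its highest-mean probe set. It stood at 5.15, 5.41 and 5.24 in mixed A and 5.18, 5.02 and 5.12 in the mixed B arrays at E14, and at 4.23 to 4.37 in the 6 mixed arrays at P0. The ages did not overlap, and the change was -0.69 ± 0.10 (adjusted p = 4.71e-07). The other Neurog1 probe set averaged 7.35 ± 0.15 (SD, n = 3) in mixed A and 6.99 ± 0.10 in the mixed B arrays at E14, and 3.52 ± 0.06 and 3.41 ± 0.10 at P0. Its change was -3.49 ± 0.13 (adjusted p = 2.05e-15), so the size of the fall depends on the probe set while the direction does not.

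Eomes, which marks intermediate progenitors, stood at 9.62, 10.67 and 11.12 in mixed A and 9.84, 9.93 and 9.96 in the mixed B arrays at E14. At P0 it stood at 6.98, 7.44 and 6.98 in mixed A and 6.97, 7.20 and 7.18 in mixed B, and at P14 at 4.74, 4.45 and 4.39 and 4.08, 4.07 and 4.34. The 3 ages were fully separate, and mixed A varied most at E14. The changes were -2.88 ± 0.23 (adjusted p = 1.23e-09) and -2.91 ± 0.23 (adjusted p = 1.65e-09). Its other probe set gave -2.80 ± 0.22 and -2.23 ± 0.22.

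Insm1 followed with a smaller first step. It stood at 9.22, 9.99 and 10.28 in mixed A and 9.46, 9.49 and 9.44 in the mixed B arrays at E14, and at 7.81, 8.04 and 7.88 and 7.32, 7.90 and 7.78 at P0. At P14 its mixed arrays lay between 4.36 and 5.12, all below every P0 array. The changes were -1.67 ± 0.22 (adjusted p = 3.25e-07) and -3.12 ± 0.22 (adjusted p = 4.25e-11), and the other Insm1 probe set gave -1.88 ± 0.18 and -3.28 ± 0.18.

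The Nhlh factors of newborn neurons parted company in time. Nhlh1 stood at 7.45, 7.56 and 7.67 in mixed A and 7.09, 7.11 and 7.10 in the mixed B arrays at E14 and was already at 3.54 to 3.90 at P0, a change of -3.40 ± 0.12 (adjusted p = 9.46e-16), after which it was not called. Nhlh2 stood at 10.04, 9.35 and 8.95 in mixed A and 9.79, 9.72 and 9.87 in the mixed B arrays at E14, at 7.14, 6.96 and 7.92 and 8.07, 7.81 and 7.75 at P0, and at 3.43 to 3.78 at P14. Its changes were -1.82 ± 0.22 (adjusted p = 1.86e-07) and -4.13 ± 0.22 (adjusted p = 1.67e-12). Nhlh1 had thus reached the floor at P0, when Nhlh2 was still above the filter in all 10 groups. The difference between the 2 genes was not tested.

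Of the Neurod factors, Neurod4, an early neuronal bHLH factor, was present above the filter only at E14, at 5.69, 5.81 and 5.80 in mixed A and 5.71, 5.68 and 5.66 in mixed B, and lay between 3.33 and 3.69 in the mixed arrays at P0 (-2.05 ± 0.09, adjusted p = 4.69e-14). Neurod1, a driver of neuronal differentiation, stood at 9.93, 10.40 and 10.13 in mixed A and 10.17, 10.02 and 10.15 in the mixed B arrays at E14 and between 7.99 and 9.003 at P0 (-1.30 ± 0.13, adjusted p = 5.99e-08). From P0 to P14 Neurod1 was not called (-0.31 ± 0.13, adjusted p = 0.516), and it was above the filter in all 26 groups. Neurod4 ended at the floor where Neurod1 did not.

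Neurod2, a factor of maturing excitatory neurons, was the flattest of the 10. It stood at 8.50, 9.59 and 10.14 in mixed A and 8.84, 8.97 and 8.90 in the mixed B arrays at E14, at 9.21, 9.49 and 9.01 and 8.87, 9.25 and 9.45 at P0, and at 9.07, 8.75 and 8.78 and 8.64, 8.77 and 8.81 at P14. The ages overlapped. The changes were 0.24 ± 0.24 (adjusted p = 1, before the median was taken off, -0.18 in mixed A but 0.28 in mixed B) and -0.54 ± 0.24 (adjusted p = 0.217). Its other tested probe set was called lower in the second step (-0.95 ± 0.23, adjusted p = 0.00627) and the third was under the filter.

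Neurod6 stood at 10.72, 11.44 and 11.21 in mixed A and 11.32, 11.09 and 11.26 in the mixed B arrays at E14, and at 10.66, 10.96 and 10.66 and 10.96, 10.98 and 10.88 at P0. These overlapped, and the change was -0.13 ± 0.14 (adjusted p = 0.103). It was called lower without mixed A replicate 1 at E14. At P14 it stood at 9.03, 8.75 and 9.02 in mixed A and 9.93, 10.12 and 10.12 in mixed B, below every P0 array (-1.49 ± 0.14, adjusted p = 7.6e-06).

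**Figure D2:**
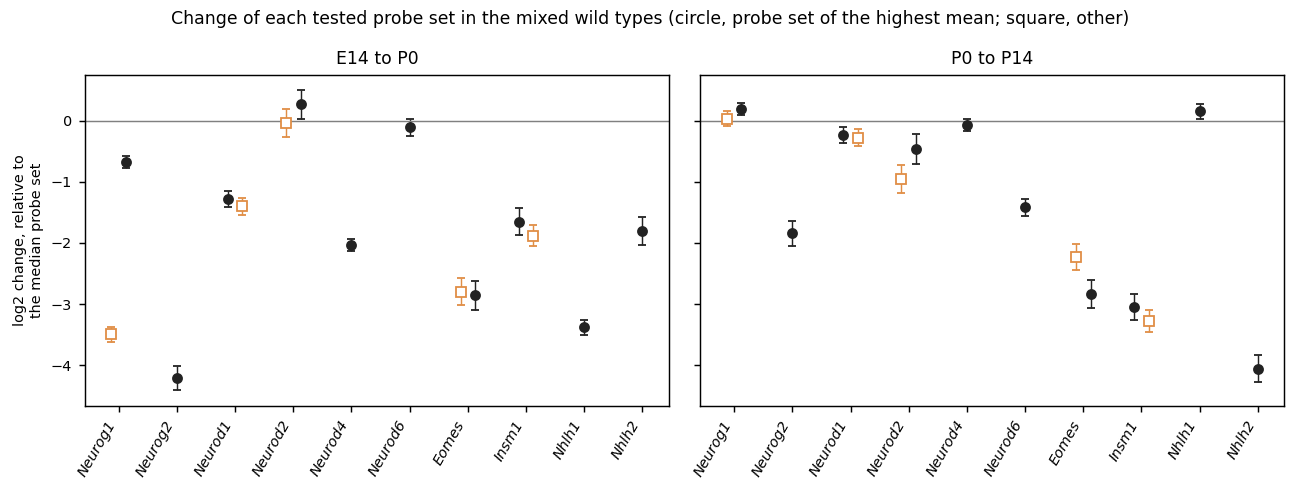
Change relative to the median probe set on the log2 scale (y axis) ± SE of every tested probe set of the 10 genes (x axis) from E14 to P0 and from P0 to P14 in the mixed wild types, with circles for the highest-mean probe set and squares for the others. Values of the circles differ slightly from those in the text, which are relative to the median gene. The 2 Neurog1 probe sets stand far apart from E14 to P0, at -0.67 and -3.49, while those of Eomes, at -2.86 and -2.80, lie close together.

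From P0 to P14, 5 of the 10 genes were called in the mixed backgrounds, all lower, against 56.4% of all tested genes called, 22.1% lower and 34.3% higher. In the inbred wild type 7 of 10 were called, against 71.7% of all tested genes, 38% higher and 33.8% lower. There the median gene moved by 0.04. Nhlh2 changed by -3.56 ± 0.22, Insm1 by -3.09 ± 0.22, Eomes by -2.50 ± 0.23, Neurog2 by -1.91 ± 0.20 and Neurod6 by -1.88 ± 0.14. Neurod1 also fell in the inbred wild type, from 8.52, 8.58 and 8.51 at P0 to 7.68, 7.98 and 8.01 at P14 (-0.69 ± 0.13, adjusted p = 0.000146). Neurog1 was called higher there (0.19 ± 0.10, adjusted p = 0.0401) with all arrays under the filter at both ages, and turned lower with quantile normalization (-0.0427, adjusted p = 0.718). That call was lost without inbred replicate 2 or 3 at either age (adjusted p up to 0.115). It was also lost with arrays centred on their median (0.23 ± 0.10, limma adjusted p = 0.0579). The other Neurog1 probe set was not called (0.16 ± 0.13, limma adjusted p = 0.323).

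The fall of Neurod6 from P0 to P14 was larger in mixed A than in mixed B, by -0.94 ± 0.20 (limma adjusted p = 0.00404), the only one of the 10 genes so called on the highest-mean probe sets, against 11.6% of all genes (8.05% higher). The other Neurod1 probe set was called the opposite way (0.71 ± 0.19, adjusted p = 0.0183). In mixed A the unshifted step was -1.83 and in mixed B -0.89. From E14 to P0 no gene of the 10 was called between the backgrounds with limma (2 at unadjusted p under 0.05), against 10.4% of all genes (6.01% higher). Without mixed A replicate 1 at E14, Eomes, Neurod1 and Neurod2 were called there (3), and without mixed A replicate 2 at P0 only Neurod1 (1). Without mixed A replicate 3 at P0, Nhlh2 was called beside Neurod6 in the later step (2).

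Among the partners and inhibitors of bHLH factors 7 of 12 tested were called lower from E14 to P0 and 1 higher (median -0.69), where 35% of all tested genes were called lower and 14.8% higher. Those called lower included Hes1, the Notch-induced repressor (-1.69 ± 0.11), the E protein gene Tcf12 (-1.47 ± 0.07) and Id4 (-1.32 ± 0.11). Of 16 genes known to be induced in the proneural cascade 14 fell and 0 rose (median -1.31). The largest falls were those of Ebf3 (-3.11 ± 0.51) and Ebf2 (-2.90 ± 0.42), transcription factors of early neurons, and of Gadd45g (-2.29 ± 0.14). The median of the 10 genes themselves was -1.75. Markers of dividing cells fell in 13 of 13 cases (median -2.19), and those of general neurons were called higher in 5 of 8. In bulk samples fewer cells of a type and less RNA per cell cannot be told apart.

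From P0 to P14, 5 of 12 partners and inhibitors were lower and 3 higher (median -0.58), a share of calls near that of all tested genes (56.4%, with 22.1% lower and 34.3% higher). Hey1 rose (1.23 ± 0.11), while the E protein genes Tcf3 (-1.25 ± 0.13) and Tcf12 (-1.24 ± 0.07) fell. Of the 16 cascade genes 9 fell and 2 rose (median -0.67), with Ebf3 at -2.45 ± 0.51, Hes6 at -1.99 ± 0.08 and Myt1 at -1.76 ± 0.12. Over the same step 5 of 5 tested oligodendrocyte markers and 5 of 6 astrocyte markers were called higher, and 12 of 13 markers of dividing cells lower. Their part in the changes of the 10 genes was not tested.

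Among all 26 groups the order of levels followed age. For 8 of the 10 genes every E14 group mean lay above every later one, the exceptions being Neurod2 and Neurod6. For Neurog2, Neurod6, Eomes, Insm1 and Nhlh2 every P0 group mean also lay above every P14 mean. The share of all genes separated in these ways was not counted. In the mixed wild types 35% of tested genes were called lower in the first step and 22.1% in the second. Within that order most neighbours could not be separated. Of the 25 gaps between neighbouring groups, those larger than the larger SD of the pair numbered 5 for Neurod1 and Eomes, 4 for Neurog2 and Nhlh2, 3 for Neurog1, Neurod4, Neurod6, Insm1 and Nhlh1, and 2 for Neurod2.

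At the foot of the E14 order, Ndel1 ko/+ had the lowest group mean for 7 of the 10 genes, such as Eomes (9.57 ± 0.10, SD) and Neurog2 (9.82 ± 0.10), and was not called against wild type for any. The share of all genes with their lowest E14 mean in that group was not counted. Its arrays were all among those with higher midbrain, hindbrain and spinal cord markers (mean level 5.89 to 6.38), described below. The part of this in the order was not tested. At P0 the highest mean of Eomes (7.89 ± 0.11), Neurog2 (6.52 ± 0.22), Neurod1 (9.20 ± 0.16) and Neurod6 (11.25 ± 0.12) was that of Ndel1 ko/cko. At P14 Neurod1 ran from 7.63 ± 0.20 in Lis1 ko/cko to 8.77 ± 0.02 in mixed B.

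The group means of Neurog2 were most like those of Rad54l, Pole2 and Aurkb (Pearson r of 0.997, 0.997 and 0.996 over 26 groups, 13052 genes searched). Those of Eomes were most like Tead2, Ncapg and Uhrf1 (0.995, 0.995 and 0.994), and those of Nhlh2 most like Hmgb2 (0.995). Insm1 resembled Smc1a and Nono (0.996 each). Neurod6 resembled Sbk1 (0.990), Kdm2b (0.983) and Nrp1 (0.981), whereas the best match of Neurod2, Tnrc18, reached only 0.879. These correlations follow age, which all genes of a group share. With the mean of each age taken off, Neurod6 was most like Zbtb18 (0.970), Neurod1 like Rasa1 (0.952), Insm1 like Cntn2 (0.896), Neurod2 like Prex1 (0.852), Neurog2 like Rai14 (0.832) and Eomes like Dpy19l1 (0.824). These values still hold the sides of the first component at P0 and P14, and the differences between E14 arrays described below. Each match is the best of the 13052 genes searched, and no test was made.

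At E14 the 24 arrays differed in how much midbrain, hindbrain and spinal cord RNA they held, and several of the 10 genes went with it. The mean level of that marker list was 4.39 to 4.49 in 6 arrays (replicates 2 and 3 of mixed A, replicate 1 of Lis1 ko/+, replicates 1 and 3 of Lis1 ko/cko and replicate 2 of those labelled 14-3-3 epsilon ko/ko) and 5.13 to 6.70 in the other 18. Eomes was 10.60 to 11.12 in the 6 and 9.46 to 9.96 in the 18, Neurod2 9.59 to 10.14 against 8.33 to 9.21, Neurog2 10.62 to 10.88 against 9.70 to 10.48 and Insm1 9.81 to 10.28 against 9.10 to 9.61. Nhlh2 went the other way, at 8.95 to 9.35 against 9.42 to 10.19. These 5 genes did not overlap between the sets of arrays, and Neurog1, Neurod1, Neurod4, Neurod6 and Nhlh1 did. The share of all genes without such overlap was not counted, so this cannot be read as particular to these 5. Over the 24 arrays summed levels also varied for meningeal markers (8.87 to 13.16) and choroid plexus markers (7.62 to 13.85). The sets come from the arrays themselves, not from the study's labels, and no test was made.

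**Figure D3:**
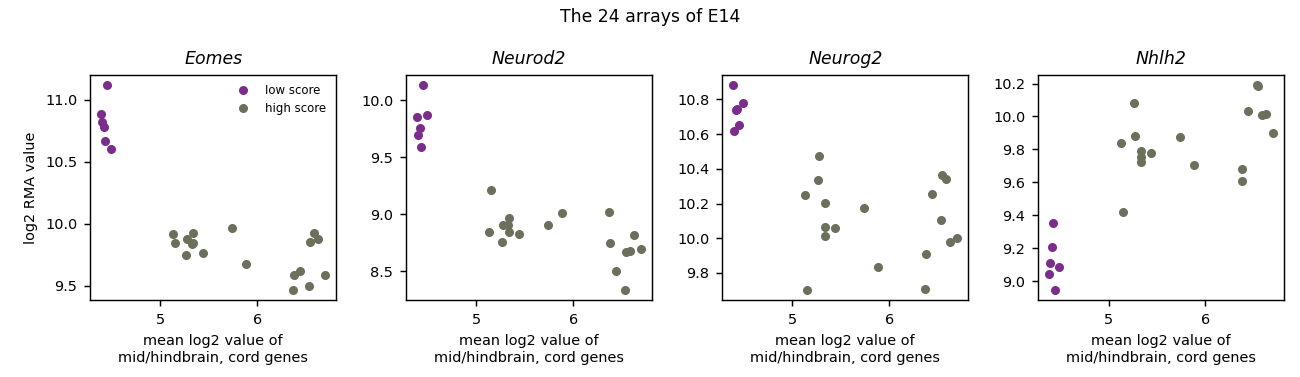
Log2 level of Eomes, Neurod2, Neurog2 and Nhlh2 (y axis) against the mean log2 level of midbrain, hindbrain and spinal cord markers (x axis) in the 24 arrays at E14, with the 6 low arrays in purple and the 18 others in grey. Eomes, Neurod2 and Neurog2 are higher and Nhlh2 lower in the 6 low arrays, without overlap.

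Leaving out these 6 arrays, an alternative added after seeing the data that leaves mixed A with 1 array at E14, kept every tested fall from E14 to P0. The unshifted change of Eomes became -2.64 ± 0.21 in place of -3.07 ± 0.23, that of Insm1 -1.55 ± 0.25 in place of -1.86 ± 0.22, and that of Nhlh2 -2.31 ± 0.26 in place of -2.01 ± 0.22. Neurog2 was at -4.27 ± 0.28. Neurog1 was under the filter in that fit. The single mixed A array has no spread of its own there and was assumed to vary like the other groups, which makes this a weak check of the mixed A side of each call.

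In the E14 mutants no gene of the 10 was called with limma. The share of all 11743 tested genes called was 0% in Lis1 ko/+, Lis1 ko/cko, Ndel1 ko/cko and the libraries labelled 14-3-3 epsilon ko/ko, 0.0341% in Ndel1 ko/+ and 0.0426% in Dcx ko/Y. At unadjusted p under 0.05 there was 1 of 10 in Dcx ko/Y and 0 of 10 in each of the other 5. The changes of the 10 genes ran from -0.62 to 0.04 in Ndel1 ko/+, from -0.22 to 0.31 in Lis1 ko/cko and from -0.49 to 0.43 in Dcx ko/Y. Between ko/cko and ko/+ of the same gene 0 of 10 were called at E14 (0 at unadjusted p under 0.05 for Lis1 and for Ndel1), against 0.0426% and 0.128% of all genes, and between mixed A and mixed B 0 of 10 (1 at unadjusted p under 0.05), against 0.0681%. Leaving out any 1 array, those that go against their labels included, changed none of these counts. This is no check of the 14-3-3 epsilon label, since replicate 1 or 2, which both held Ywhae, always remained.

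At P0 the clearest contrast lay between the Ndel1 genotypes. In Ndel1 ko/cko brains Eomes, Insm1, Neurog2 and Nhlh2 were higher than in Ndel1 ko/+ brains, by 1.36, 0.97, 0.89 and 0.75 on the log2 scale, while the 3 tested Neurod genes were not called. Of the 10 genes 7 passed the filter at P0 (not Neurog1, Neurod4 or Nhlh1), and the 4 called among them are read against 9.13% of all tested genes called and 5.93% called higher. All 6 arrays lay on the side of mixed B. Ndel1 itself averaged 9.33 ± 0.07 (SD) in ko/+ and 9.56 ± 0.06 in ko/cko against 9.74 ± 0.13 in mixed B and 9.89 ± 0.11 in mixed A.

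Eomes stood at 6.53, 6.59 and 6.47 in the Ndel1 ko/+ arrays and at 7.92, 7.76 and 7.97 in the ko/cko arrays. Wild-type arrays lay between, at 6.98, 7.44 and 6.98 in mixed A and 6.97, 7.20 and 7.18 in mixed B, with no overlap on either side. The difference between the mutants was 1.36 ± 0.17 (SE, adjusted p = 3.46e-05), and it was called with any 1 array left out (1.31 to 1.42). The other Eomes probe set ran from 4.86 to 5.54 in ko/+ and 7.02 to 7.24 in ko/cko, a difference of 1.85 ± 0.23 (adjusted p = 2.48e-05). On that probe set mixed A, at 7.03 ± 0.32 (SD), overlapped ko/cko, and only mixed B, at 6.30 ± 0.32, lay between the mutants.

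Insm1 stood at 6.91, 7.18 and 7.15 in ko/+ and 8.07, 7.99 and 8.07 in ko/cko, without overlap (0.97 ± 0.18, adjusted p = 0.00143). All ko/+ arrays were below the 6 mixed wild-type arrays, whose range was 7.32 to 8.04. Of the ko/cko arrays only replicate 2 lay within that range. The call held with any 1 array left out (0.88 to 1.02). The other Insm1 probe set was not called (0.21 ± 0.22, adjusted p = 0.616).

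Neurog2 stood at 5.44, 5.74 and 5.71 in ko/+ and 6.57, 6.28 and 6.70 in ko/cko (0.89 ± 0.26, adjusted p = 0.033). The 2 mutant groups did not overlap. The call was lost without ko/+ replicate 1, 2 or 3 (0.79, 0.94 and 0.93) and without ko/cko replicate 1 or 3 (0.86 and 0.80), with adjusted p up to 0.129. Nhlh2 stood at 6.85, 7.30 and 6.51 in ko/+ and 7.65, 7.49 and 7.77 in ko/cko (0.75 ± 0.21, adjusted p = 0.0265). These groups did not overlap either, and the call was lost without ko/+ replicate 1 or 3 (0.73 and 0.56) and without ko/cko replicate 1 or 3 (0.75 and 0.69), with adjusted p up to 0.163. Neurod2 (0.37 ± 0.16, adjusted p = 0.155), Neurod1 (0.22 ± 0.13, adjusted p = 0.298) and Neurod6 (0.05 ± 0.10, adjusted p = 0.827) were not called.

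**Figure D4:**
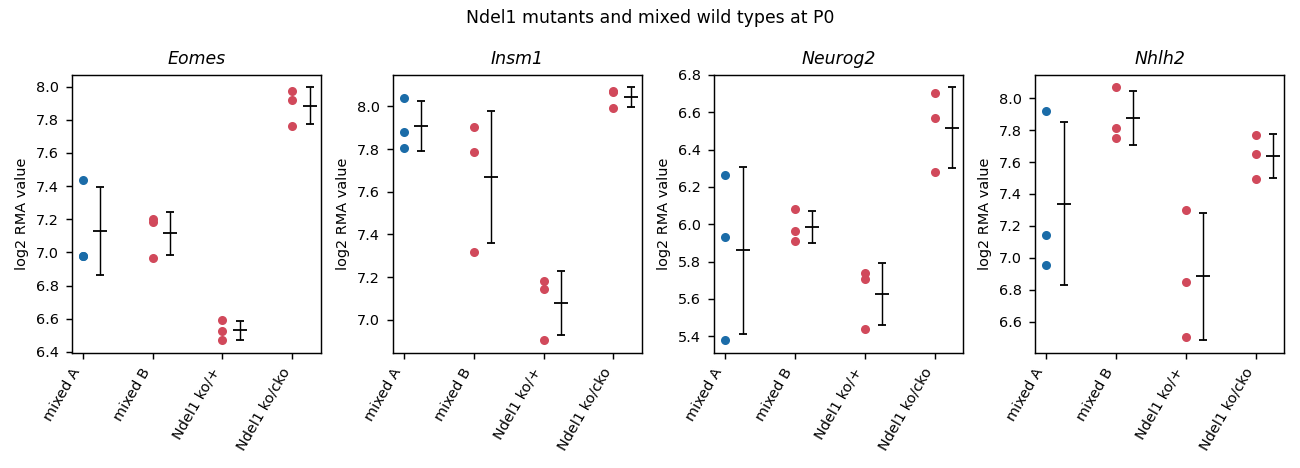
Log2 level (y axis) of Eomes, Insm1, Neurog2 and Nhlh2 at P0 in mixed A, mixed B, Ndel1 ko/+ and Ndel1 ko/cko (x axis), with 1 point per array, blue for the mixed A side and red for the mixed B side of the first component, and the mean ± SD (n = 3). In each panel the 3 ko/cko arrays lie above the 3 ko/+ arrays, and for Eomes the wild types lie between them.

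The lists around these genes held the following in the same contrast. Of 15 tested cascade genes 5 were called higher and 0 lower in ko/cko, with Hes6, a bHLH factor that promotes differentiation, at 0.64 ± 0.10, Myt1 at 0.62 ± 0.15 and Gadd45g at 0.55 ± 0.14. Of 11 partners and inhibitors 1 was called, Id2 (0.76 ± 0.13). In the excitatory lineage list 3 of 12 were higher: Fezf2, a factor of deep-layer neurons (0.64 ± 0.13), Sstr2 (0.62 ± 0.16) and Pax6, which acts in radial glia (0.61 ± 0.14).

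Markers of other cells moved beside them. Of 12 radial glia markers 4 were higher and 1 lower, with Prom1 at 0.61 ± 0.14, Vim at 0.54 ± 0.13 and Notch1 at 0.51 ± 0.12. Of 11 markers of dividing cells 3 were higher, Top2a (0.63 ± 0.16), Mki67 (0.60 ± 0.17) and Mcm5 (0.41 ± 0.12). Their summed level was 12.10 to 12.15 in ko/+, 12.33 to 12.40 in ko/cko, 12.32 to 12.48 in mixed A and 12.21 to 12.42 in mixed B, with Aurkb and Cdc6 under the filter. Of 8 general neuronal markers 3 were lower and 1 higher, with a summed level of 14.93 to 14.99 in ko/+ and 14.81 to 14.85 in ko/cko. None of 6 choroid plexus markers was called (summed level 12.90 to 13.39 in ko/+ and 12.49 to 13.55 in ko/cko). The 3' to 5' actin difference, a sign of RNA integrity, was 0.391 to 0.431 in ko/+ and 0.385 to 0.449 in ko/cko. The part of these in the differences of Eomes, Insm1, Neurog2 and Nhlh2 was not tested.

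Set against both mixed wild types, Eomes was the only one of the 7 called in Ndel1 ko/cko at P0, 0.76 ± 0.17 higher (limma adjusted p = 0.0312), against 0.84% of all genes called. The difference was 0.76 from mixed A and 0.77 from mixed B. The call was kept only without mixed A replicate 2. It was lost without mixed A replicate 1 or 3, any of the 3 mixed B arrays or any of the 3 ko/cko arrays (changes of 0.72 to 0.82, adjusted p up to 0.183). It was also lost when every probe set was tested (0.43, adjusted p = 1) and in 1 fit of all 78 arrays (adjusted p = 0.149).

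In Ndel1 ko/+ at P0 none of the 7 was called jointly with limma (4 at unadjusted p under 0.05), against 4.04% of all genes. Insm1 was at -0.71 ± 0.18 and Eomes at -0.59 ± 0.17, both with adjusted p = 0.0541, and each was called against each wild type alone (Insm1 -0.83 from mixed A and -0.59 from mixed B, Eomes -0.60 and -0.59). Nhlh2 was at -0.72 ± 0.21 (adjusted p = 0.271). Without mixed B replicate 1, Insm1 was called jointly (1). Choroid plexus markers were lower in 3 of 6 cases in these brains, with a summed level of 12.90 to 13.39 against 13.29 to 13.59 in mixed A and 13.57 to 13.69 in mixed B and Kl, Kcne2, Aqp1 and Otx2 under the filter in ko/+. The only tested red blood cell marker was also lower, and 0 of 7 meningeal markers were called. Their part in the values of Insm1 and Eomes was not tested.

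In the other P0 mutants no gene of the 7 was called with limma. The shares of all genes called were 0% in Lis1 ko/+, 0.331% in Lis1 ko/cko, 0.0255% in Dcx ko/Y, 0.255% in inbred Ndel1 ko/+ and 0.0255% in inbred 14-3-3 epsilon ko/ko. At unadjusted p under 0.05 there were 0, 1, 0, 1 and 1 of the 7. The changes ran from 0.03 to 0.44 in Lis1 ko/cko, with Neurod2 at the top (0.44 ± 0.16, adjusted p = 0.291), and from -0.14 to 0.40 in inbred 14-3-3 epsilon ko/ko, again with Neurod2 at the top (0.40 ± 0.16, adjusted p = 0.448). Between Lis1 ko/cko and ko/+ 0 of 7 were called (1 at unadjusted p under 0.05), against 0.569%. Leaving out any 1 array, the Dcx ko/Y library that held Xist included, changed none of these counts.

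Between the wild types at P0 Neurod1 was lower in mixed A than in mixed B, at 8.49, 8.68 and 7.99 against 8.86, 9.003 and 8.81. The arrays did not overlap (-0.50 ± 0.13, adjusted p = 0.00422). It was the only one of the 7 called on the highest-mean probe sets, against 28.7% of all genes. The other Eomes probe set was higher in mixed A (0.73 ± 0.23, adjusted p = 0.0166). Without mixed A replicate 3 Neurod1 was not called (-0.31, adjusted p = 0.0516) and Nhlh2 was, and without mixed A replicate 2 Neurod6 was called too (2). Of the 7 genes 0 were called between the inbred and both mixed wild types (limma, 1 at unadjusted p under 0.05), against 1% of all genes.

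Neurod1 followed the sides of the first component in all P0 groups. It was 7.99 to 8.73 in the 18 arrays on the side of mixed A and 8.81 to 9.38 in the 12 on the side of mixed B, where the actin difference was 0.274 to 0.449 against 0.122 to 0.214. The other Neurod1 probe set was 7.44 to 8.29 and 9.16 to 9.65, and its difference between the mixed wild types was -1.41 ± 0.14 (adjusted p = 9.17e-08). The sides come from the expression values of these same arrays, and the share of all genes without overlap between them was not counted. The split therefore cannot be read as particular to Neurod1. The part of RNA integrity in it was not tested.

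By P14 the only ones of the 10 genes still above the filter were Neurod1, Neurod2 and Neurod6. In Lis1 ko/cko brains Neurod1 was lower and Neurod2 higher than in both mixed wild types, by -0.84 and 0.45 on the log2 scale, and Neurod6 was not called (-0.16 from mixed A and -1.29 from mixed B, adjusted p = 0.717). The share of all 12296 tested genes called was 6.32%.

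Neurod1 stood at 7.60, 7.44 and 7.84 in Lis1 ko/cko at P14, at 8.16, 8.21 and 8.09 in mixed A and at 8.78, 8.78 and 8.75 in mixed B. The mutant arrays were below all 6 mixed wild-type arrays but overlapped the inbred wild type (7.68, 7.98 and 8.01). Mix-labelled Ndel1 ko/+ (7.97, 7.87 and 7.88) also lay below every mixed A array. The change was -0.84 ± 0.11 (adjusted p = 0.00864), with -0.52 against mixed A and -1.15 against mixed B. The call was lost without Lis1 ko/cko replicate 1 (-0.82, adjusted p = 0.0659) or 2 (-0.74, adjusted p = 0.0873), and the other Neurod1 probe set was not called (-0.57 ± 0.11, adjusted p = 0.271).

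Neurod2 stood at 9.29, 9.43 and 9.05 in Lis1 ko/cko, at 9.07, 8.75 and 8.78 in mixed A and at 8.64, 8.77 and 8.81 in mixed B. The lowest mutant array overlapped the highest of mixed A. The change was 0.45 ± 0.11 (adjusted p = 0.0373), 0.39 from mixed A and 0.52 from mixed B. The call was lost without Lis1 ko/cko replicate 1 or 2 (0.44 and 0.37, adjusted p = 0.165 and 0.267) and without mixed A replicate 2 or 3 (0.42 and 0.43, adjusted p = 0.16 and 0.157). It was lost for the other probe set (0.42 ± 0.10, adjusted p = 0.0587) and in 1 fit of all 78 arrays (adjusted p = 0.466).

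In these brains 4 of 10 tested markers of dividing cells were lower and 0 higher, as was 1 of 3 choroid plexus markers, while 0 of 13 cascade genes and 0 of 11 partners and inhibitors were called. Lis1 ko/+ arrays held Neurod1 at 7.73, 8.02 and 7.82 and Neurod2 at 9.22, 8.80 and 8.74. Between Lis1 ko/cko and ko/+ 0 of 3 were called (limma, 2 at unadjusted p under 0.05), against 8.02% of all genes. Without Lis1 ko/cko replicate 3 Neurod1 and Neurod2 were called (2), and without Lis1 ko/+ replicate 1 Neurod2 was (1).

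The later course of Neurod1 also differed in Lis1 ko/cko. It stood at 8.72, 8.62 and 8.67 at P0, so that its step to P14 differed from that of the wild types by -0.87 ± 0.18 (interaction in limma, adjusted p = 0.00607), -0.81 against mixed A and -0.93 against mixed B. It was the only one of the 10 called, against 2.87% of all genes. Without mixed A replicate 3 at P0 the call was lost (-0.77, adjusted p = 0.0569). The other Neurod1 probe set was at -0.31 against mixed A but 0.41 against mixed B, a mean of 0.05 ± 0.21 (adjusted p = 1).

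None of the 10 was called in the other interactions with limma. For Lis1 ko/+, Lis1 ko/cko, Ndel1 ko/+ and Ndel1 ko/cko from E14 to P0 the shares of all genes called were 0%, 0.138%, 0.942% and 0.199%, with 0, 0, 3 and 2 of the 10 at unadjusted p under 0.05. For Lis1 ko/+, Ndel1 ko/+ and Ndel1 ko/cko from P0 to P14 they were 0%, 0.0613% and 0.046%, with 1 of the 10 in each.

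**Figure D5:**
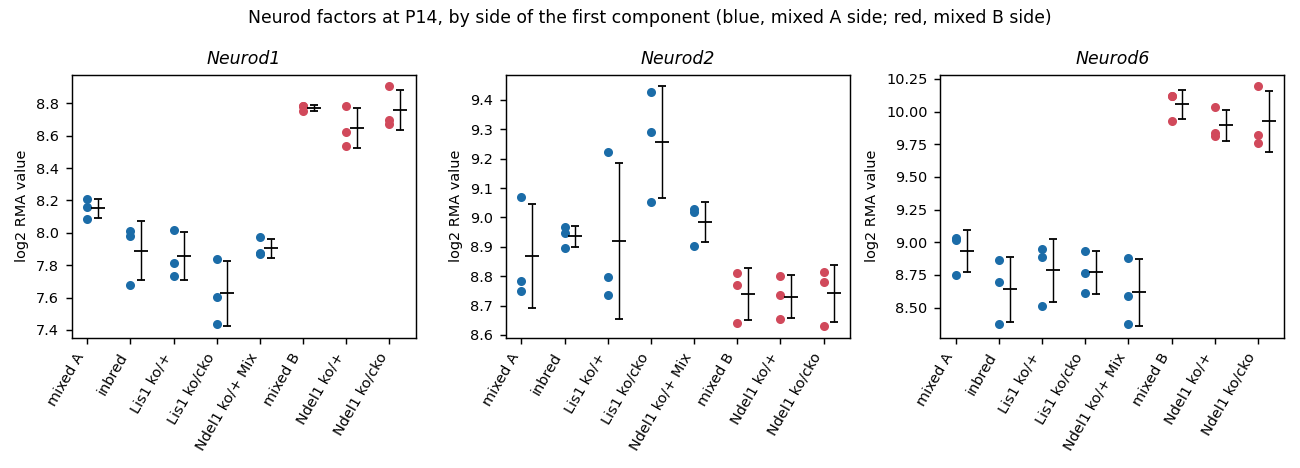
Log2 level (y axis) of Neurod1, Neurod2 and Neurod6 at P14 in the 8 groups (x axis), with 1 point per array, coloured by the side of the first component, and the mean ± SD (n = 3). Neurod1 and Neurod6 are higher in all 9 arrays of the mixed B side, and Neurod1 is lowest in Lis1 ko/cko.

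Between the wild types at P14 Neurod1 and Neurod6 were lower in mixed A than in mixed B, by -0.62 ± 0.11 (adjusted p = 4.22e-05) and -1.12 ± 0.14 (adjusted p = 1.11e-06). These 2 of 3 are read against 52.7% of all genes called. Across all P14 groups Neurod6 was 8.37 to 9.03 in the 15 arrays on the side of mixed A and 9.76 to 10.19 in the 9 on the side of mixed B, and Neurod1 7.44 to 8.21 and 8.53 to 8.90. Here the actin difference overlapped, at 0.497 to 0.956 and 0.627 to 0.717. Neurod2 ran from 8.74 to 9.43 and from 8.63 to 8.81, with overlap. The sides were drawn from the expression values of these same arrays. The share of all genes without overlap between them was not counted, so the split cannot be read as particular to Neurod1 and Neurod6.

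The Ndel1 groups are part of this split, since their arrays were among those from which the sides were drawn. Neurod6 stood at 9.83, 9.82 and 10.03 in Ndel1 ko/+ and 10.19, 9.82 and 9.76 in Ndel1 ko/cko, but at 8.88, 8.59 and 8.37 in the mix-labelled Ndel1 ko/+ libraries. None of the 3 genes was called against both wild types with limma in Lis1 ko/+ (0% of all genes called, 1 of 3 at unadjusted p under 0.05), Ndel1 ko/+ (0%, 0 of 3), Ndel1 ko/cko (0.0895%, 0 of 3), mix-labelled Ndel1 ko/+ (0.114%, 2 of 3) or the inbred wild type (0.244%, 1 of 3). Between Ndel1 ko/cko and ko/+ 0 of 3 were called (0 at unadjusted p under 0.05), against 0.309%.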

How the data were processed

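The authors deposited log2 values of 45101 probe sets on 78 arrays. The submitters' processing notes name RMA without a version. Values lie between 2.606 and 14.24. The sorted values of 2 arrays differed by 0.0342 (root mean square, median over pairs) within an age and by 0.156 between ages. Steps from age to age are therefore printed less the median gene's step (for other probe sets, the median probe set's), and called without that shift.

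Each gene was represented by its probe set of the highest mean, and tested if at least 1 group mean reached the level filter of 5.253 (the median value of the table). Tests used limma 3.58.1 in R 4.3.3 (linear models with 1 mean per group and a variance trend), fitted per age, over the wild types for steps, and over all 78 arrays for interactions, with Benjamini-Hochberg adjustment over all tested genes at 0.05. Against 2 mixed wild types, a p-value is the larger of the 2, or 1 where signs differ. The change is then their mean and the SE the larger. The labels call replicates biological without naming animals or litters, so p-values cover only the spread between these samples, and 3 arrays per group limit precision. The procedure was checked on simulated data.

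The 10 genes and all lists were chosen with earlier results of these data known. All 10 are named. Of each list up to 3 called genes with the largest change are named, and targeted genes serve as label checks. For likeness, the 3 genes of the highest Pearson r over group means were found per gene.

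Alternatives were no filter, a stricter filter (7.627), every probe set, arrays centred on their median, quantile normalization, all arrays in 1 fit, each wild type alone, a replicate block and leaving out each array. Leaving out 6 arrays at E14 was added after seeing the data.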

Additional observations from a re-analysis of the deposited data

Results flagged for a closer look

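The fall of Neurod6 from P0 to P14 differed between the mixed wild types by -0.94 ± 0.20 log2 units (mixed A minus mixed B, limma adjusted p = 0.00404), and was seen with any 1 array left out (-1.003 to -0.84, adjusted p of 0.00438 to 0.0142). Of the 10 genes only Neurod6 was called in this contrast, a share near the 11.6% of all tested genes called. The other Neurod1 probe set was called the opposite way in the same contrast (0.71 ± 0.19, adjusted p = 0.0183). The P14 arrays of mixed A and mixed B also lay on opposite sides of the first component.

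The step of Neurod1 from P0 to P14 differed between Lis1 ko/cko and both mixed wild types by -0.87 ± 0.18 (limma adjusted p = 0.00607). Of the 10 genes only Neurod1 was called there, against 2.87% of all tested genes. The call was lost without mixed A replicate 3 at P0 (-0.77, adjusted p = 0.0569), and the other Neurod1 probe set gave 0.05 (-0.31 against mixed A, 0.41 against mixed B). The cause was not tested.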

How the results depend on the processing

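Of 300 counts of called genes among the 10, recomputed under other settings, 279 stayed within 1.5 times, and of 426 recomputed without 1 array 402 did. Direction was not compared for these counts. Many of them come from comparisons in which no gene of the 10 was called to begin with. Called changes of single genes were less stable. Of 554 recomputed without 1 array 51 lost their call, and of 428 under other settings 20 lost it and 2 reversed. Counts that moved were as follows. Without a filter 4 genes were called between the wild types at P14. With the stricter filter 5 were called from E14 to P0 (fewer genes tested) and 1 in Ndel1 ko/+ at P0. With quantile normalization 1 was called between the backgrounds in the step from E14 to P0 and 2 between the wild types at P0, and Neurog1 in the inbred step turned to -0.0427 (adjusted p = 0.718). With every probe set 0 were called in Ndel1 ko/cko at P0, in Lis1 ko/cko at P14 and for the P0 to P14 interaction of Lis1 ko/cko, where the other Neurod1 probe set gave 0.0494 (-0.31 against mixed A). With mixed A as the only control 4 were called in Ndel1 ko/+, 3 in Ndel1 ko/cko and 1 in Dcx ko/Y at P0, and 2 each in Ndel1 ko/+ and Ndel1 ko/cko at P14. With mixed B as the only control 1 each was called in Lis1 ko/+ and Lis1 ko/cko and 3 in Ndel1 ko/+ at P0, and 2 each in Lis1 ko/+ and mix-labelled Ndel1 ko/+ at P14. With all 78 arrays in 1 fit 0 were called in Ndel1 ko/cko at P0 and 1 in Lis1 ko/cko at P14. The cause was not tested.

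With 1 array left out the counts ran from 2 to 4 between the Ndel1 genotypes at P0, 0 to 1 for either Ndel1 genotype against wild type at P0, 1 to 2 between the wild types at P0, 0 to 2 in Lis1 ko/cko and between the Lis1 genotypes at P14, 0 to 3 and 1 to 2 between the backgrounds in the earlier and the later step, and 0 to 1 in the interaction of Lis1 ko/cko. Where this left a group with 2 arrays, the spread was pooled over the groups of the fit.

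Replicate numbers showed no clear pairing of the samples. Same-numbered arrays correlated above 0.1 in 21 of 84 pairs at E14, 26 of 135 at P0 and 14 of 84 at P14. For arrays of different number it was 48 of 168, 59 of 270 and 23 of 168 pairs. With a replicate block 2 genes, Eomes and Insm1, were called in Ndel1 ko/+ at P0, and the counts of all other comparisons stayed within 1.5 times. Levels under the filter, as those of Nhlh1 and Neurod4 after E14, lie near background, and falls to them may be understated.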
